A study of Arabidopsis thaliana with 12 samples.

Results

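The genes AT3G52960 and AT2G04700 of Arabidopsis thaliana encode a plastid type II peroxiredoxin (PRXIIE) and the catalytic subunit of ferredoxin-thioredoxin reductase (FTR). They are 2 of the 658 single-gene features among 3303 features tested, and each was measured by 1 probe whose platform annotation names that locus alone. The table of current gene names lists both loci without a symbol, so the protein names are background knowledge. Both loci were chosen by their intensity difference between prors1 and WT, which was already known from these data. Every value of that difference given for them is therefore a description with no test.

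Total RNA of 6 samples of the prors1 mutant and 6 wild-type (WT) samples, all of ecotype Columbia 0, was measured on single-channel arrays of 3439 probes. According to the labels the mutant lacks prolyl-tRNA synthetase, an enzyme that loads proline onto its transfer RNA for protein synthesis. Tissue, age, growth conditions, the kind of mutant allele and the number of plants behind a sample are not stated in the labels, and no probe was annotated to the PRORS1 locus. The titles number the samples of each genotype from 1 to 6 without saying what a number stands for.

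In chloroplasts, photosystem I passes electrons to ferredoxin, and FTR hands them on to thioredoxins, which then reduce regulatory disulfides of target enzymes in the light. The catalytic subunit of FTR carries the iron-sulfur cluster and the disulfide on which this transfer takes place. A second route runs from NADPH through NTRC, a reductase fused to a thioredoxin. Peroxiredoxins are thiol enzymes that reduce hydrogen peroxide and organic peroxides, and PRXIIE is a soluble type II enzyme of the plastid stroma that draws its electrons mainly from glutaredoxin and glutathione.

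The arrays of the 2 genotypes differed in their overall signal, which bears on every value below. Array medians of the deposited intensity lay between 0.135 and 0.169 in WT and between 0.25 and 0.444 in prors1, on a scale that ends at 100. The ratio of the mean medians was 2.27. Samples numbered 1-2, 3-4 and 5-6 of a genotype resembled each other more than other samples did. If they are repeat measurements of the same material, p-values from 6 against 6 samples are too small. In any case these p-values cover the spread between samples only, which may be technical. Levels are given as deposited, as the position of the probe among all probes of its own array, and on the log2 scale after quantile scaling, which gives all arrays one distribution. The position on the array does not change under any rescaling that keeps the order of its probes.

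PRXIIE, the peroxide-reducing enzyme, had deposited intensities of 0.508, 0.455, 0.544, 0.529, 0.505 and 0.608 in WT samples 1 to 6. In prors1 samples 1 to 6 they were 1.36, 1.33, 1.5, 1.41, 0.88 and 0.869. Each prors1 value exceeded the highest WT value, and prors1 samples 5 and 6 were the lowest of their genotype. The means were 0.525 ± 0.0507 in WT and 1.23 ± 0.278 in prors1 (n = 6 each, SD), a 2.34-fold ratio, which is close to the 2.27-fold ratio of the array medians. Relative to the median of its own array the PRXIIE intensity was 3.43 ± 0.523 in WT and 3.53 ± 0.229 in prors1 (n = 6 each, SD). Its position on the array was 80.3% ± 1.99 in WT, from 77.9% to 83.8%, and 87.3% ± 2.61 in prors1, from 83.6% to 89.3% (n = 6 each, SD). The genotypes overlapped in this position, since prors1 sample 6 lay at 83.6% and WT sample 6 at 83.8%.

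After quantile scaling the log2 level of PRXIIE was -0.55 ± 0.14 in WT samples and 0.05 ± 0.27 in prors1 samples (n = 6 each, SD). The difference of 0.61 ± 0.13 (SE) corresponds to a 1.52-fold higher level in prors1. It was 0.86 between samples 1-2 of the genotypes, 0.84 between samples 3-4 and 0.12 between samples 5-6. Sample 6 of prors1, at -0.31, lay below WT sample 6 at -0.30, and sample 5 of prors1, at -0.27, just above it, while the other prors1 values lay at 0.18 or above. Arrays 5 and 6 of prors1 also had the lowest medians of their genotype, 0.25 each against 0.353 to 0.444, and the most probes at 0, 316 and 282 against 215 to 225. Relative to the array median, PRXIIE in these samples was 3.52 and 3.48, within the 3.18 to 3.86 of the other prors1 samples, so they did not stand apart on that scale. On the values as deposited, prors1 exceeded WT in each of these sets too, with ratios of 2.79, 2.72 and 1.57. Among pairs of samples with the same number, PRXIIE was higher in prors1 in 5 of 6 after scaling and in 6 of 6 as deposited.

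The catalytic subunit of FTR had deposited intensities of 0.376, 0.392, 0.513, 0.563, 0.627 and 0.647 in WT samples 1 to 6. In prors1 samples 1 to 6 they were 0.363, 0.371, 0.403, 0.411, 0.451 and 0.499. The genotypes overlapped, with WT samples 1 and 2 among the prors1 values, but within each numbered pair the prors1 value was the lower one. The means were 0.52 ± 0.116 in WT and 0.416 ± 0.0512 in prors1 (n = 6 each, SD). Both genotypes had their lowest values in samples 1 and 2 and their highest in samples 5 and 6. Over the sets 1-2, 3-4 and 5-6 the WT means were 0.384, 0.538 and 0.637 and the prors1 means 0.367, 0.407 and 0.475.

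The FTR subunit had less signal on the prors1 arrays, where the median feature was 0.91 higher on the log2 scale. Its intensity over the array median was 3.43 ± 0.99 in WT and 1.28 ± 0.483 in prors1 (n = 6 each, SD). Its position on the array was 79.5% ± 4.67 in WT (range 74.2% to 85%) and 55.9% ± 11.2 in prors1 (range 46.6% to 71.1%; n = 6 each, SD), without overlap. After quantile scaling its log2 level was -0.58 ± 0.31 in WT samples and -1.74 ± 0.48 in prors1 samples (n = 6 each, SD). The difference of -1.16 ± 0.22 (SE) corresponds to a 2.23-fold lower level in prors1, and the genotypes did not overlap. The scaled difference was -1.04, -1.52 and -0.91 in the sets 1-2, 3-4 and 5-6, and 6 of 6 numbered pairs were lower in prors1. Prors1 samples 5 and 6, at -1.18 and -1.08, stood above the other prors1 samples, which lay between -2.13 and -1.95. In bulk samples, fewer cells of a type and less RNA per cell cannot be told apart.

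**Figure D1:**
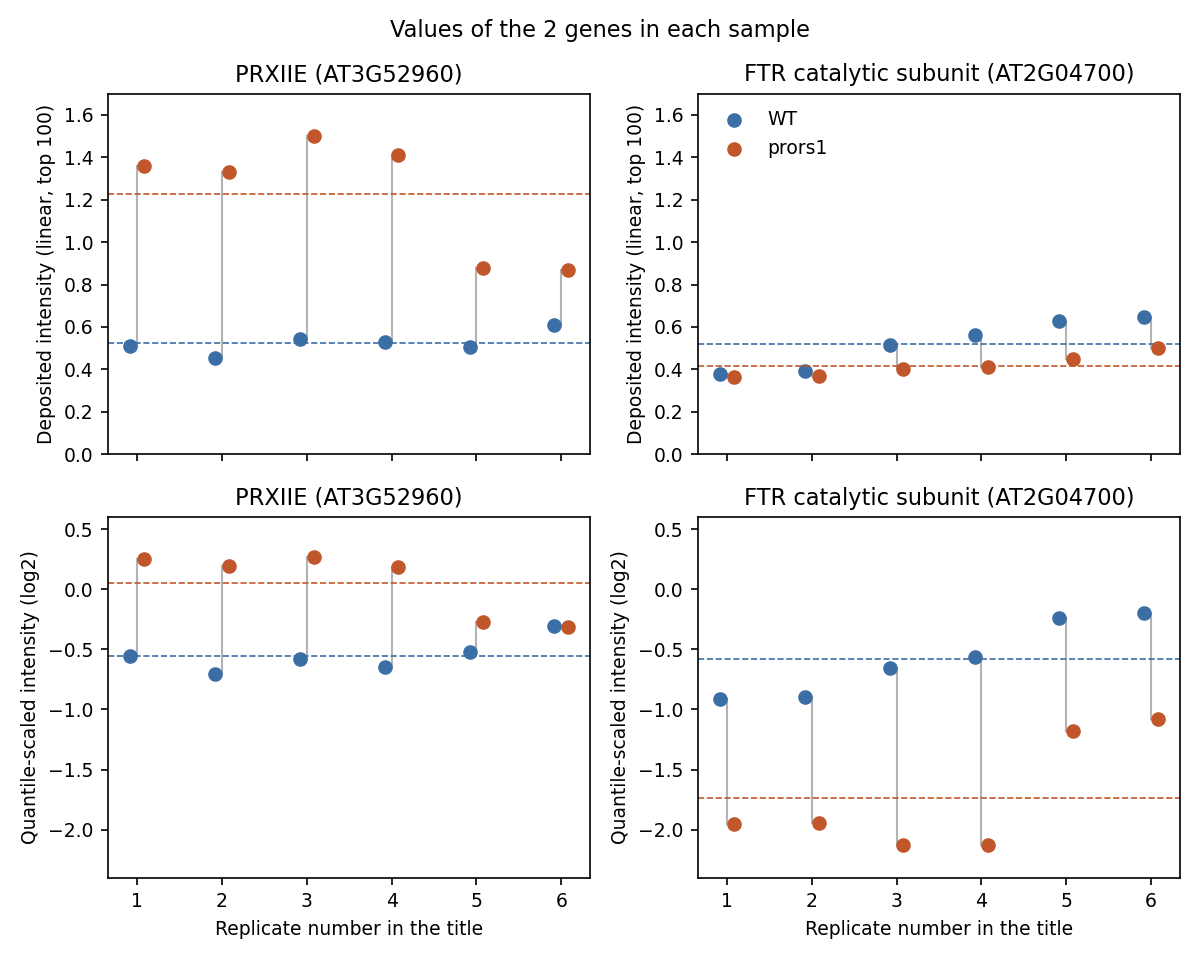
Deposited intensity (upper row, linear scale) and quantile-scaled intensity (lower row, log2) of PRXIIE (left) and the FTR catalytic subunit (right) by the replicate number in the titles, with grey lines joining samples that share a number and dashed lines at the genotype means. PRXIIE is higher in prors1 in each pair as deposited. After scaling it is higher in each pair except number 6 (difference -0.011), with a mean difference of 0.12 over samples 5 and 6. The FTR subunit is lower in prors1 in each pair and separates the genotypes only after scaling.

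The log2 ratio of the PRXIIE probe to the FTR probe on the same array leaves out any factor that multiplies a whole array. The level of such a ratio depends on both probes and has no meaning of its own, so only its change between samples is read. The ratio was 0.43, 0.21, 0.08, -0.09, -0.31 and -0.09 in WT samples 1 to 6 and 1.91, 1.84, 1.90, 1.78, 0.96 and 0.80 in prors1 samples 1 to 6. The genotypes did not overlap, and prors1 samples 5 and 6 were again the nearest to WT. The mean was 0.04 ± 0.26 in WT samples and 1.53 ± 0.51 in prors1 samples (n = 6 each, SD), a difference of 1.49 ± 0.23 (SE) or 2.81-fold. Dividing each array by its median leaves this value as it is, and it was 1.76 ± 0.32 (SE) after quantile scaling and 1.75 ± 0.27 (SE) after cyclic loess. Between samples of the same number the deposited change ranged from 0.89 to 1.87. The 2 loci were chosen with their differences known, so an unequal change is built into the choice and is no independent result. Division by medians cannot alter the ratio and so adds nothing to it. The share of each transcript in the gap depended on which of the 4 scalings was used. FTR stood between -1.32 and -1.06 relative to the median feature under these scalings, so a gap to FTR is not particular to PRXIIE.

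**Figure D2:**
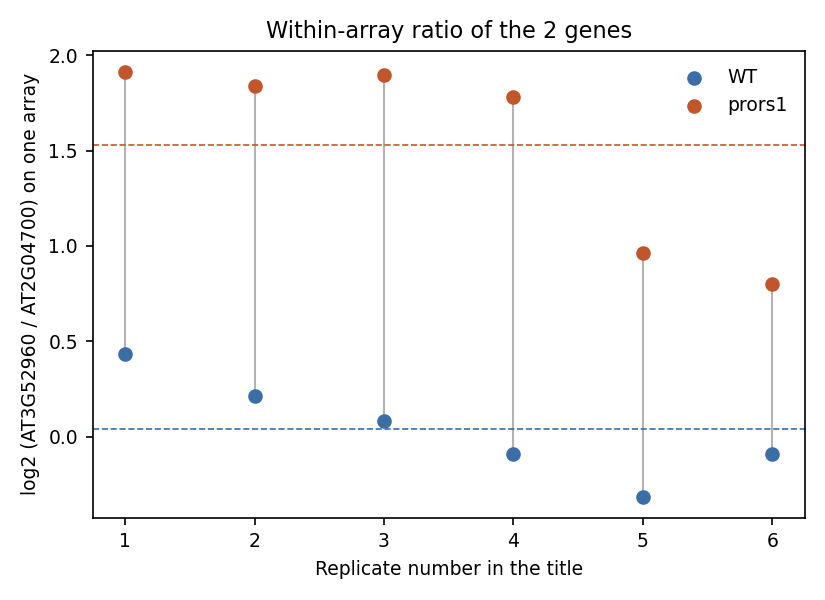
Log2 ratio of the deposited PRXIIE intensity to that of the FTR catalytic subunit on the same array, by the replicate number in the titles, with grey lines joining samples of the same number and dashed lines at the genotype means. The WT samples lie between -0.31 and 0.43 and the prors1 samples between 0.80 and 1.91.

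The PRXIIE difference was 1.20 ± 0.16 (SE) as deposited, where the median feature was 0.91 higher in prors1, so that it stood 0.28 above the median feature. It was 0.68 ± 0.14 (SE) after cyclic loess and 0.18 ± 0.12 (SE) with arrays divided by the median of their positive values. Among all features, 80.8% had a lower difference than PRXIIE after quantile scaling and 82.1% after cyclic loess, against 62.4% as deposited and 58.9% with division by medians. The FTR difference was -0.30 ± 0.16 (SE) as deposited, which is -1.21 relative to the median feature. It was -1.07 ± 0.21 after cyclic loess and -1.31 ± 0.24 with division by medians (SE). Between 5.51% and 7.53% of features had a lower difference than the FTR subunit under the 4 scalings. The place of FTR among all features therefore moved little with the scaling, and that of PRXIIE moved more.

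The neighbours of these genes in the redox network were taken from a list of 81 loci drawn up from general knowledge. It was written with earlier results of these data known, so the counts and p-values of its members are no independent test. The list holds ferredoxins, reductases, thioredoxins, glutaredoxins, peroxiredoxins, other antioxidant enzymes and thioredoxin targets. Besides PRXIIE and FTR, 6 of these loci had a single-gene feature, and 10 others were annotated only on probes that name several genes. The remaining loci, which include the variable subunits of FTR, were not analysed here. A feature was called where limma gave an adjusted p under 0.05, and 23.2% of all features were called lower and 19.6% higher in prors1 after quantile scaling. Of the 6 neighbours 4 were called lower and none higher. Their median log2 difference was -0.63, against -0.02 over all features. The 4 called were the 4 measured loci from the thioredoxin targets of the list. Without replicate number 2 the count was 2, beside 1209 of 3303 features. With samples 1-2, 3-4 and 5-6 averaged it was 2, beside 749 of 3303 features. On the values as deposited 1 was lower and 1 higher, beside 182 lower and 2030 higher of 3307 features. The count was 5, all lower, with the replicate number as a block, where 875 of 3303 features were lower. It was also 5, all lower, with division by medians of positive values, where 866 of 3295 features were lower.

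NTRC (AT2G41680), the NADPH-dependent thioredoxin reductase, had positions on the array from 63.1% to 73.3% in WT and from 57% to 72.2% in prors1, which overlapped. Its scaled difference was -0.29 ± 0.13 (SE, n = 6 each, limma adjusted p = 0.0932). A block for the replicate number made it a call, lower in prors1 (limma adjusted p = 0.0332), as it was without WT replicate 5 (-0.36, limma adjusted p = 0.0315), without prors1 replicate 2 (-0.36, limma adjusted p = 0.0314) or without replicate number 5 in both genotypes (limma adjusted p = 0.0404). Division by array medians called it lower too (-0.41, limma adjusted p = 0.0233, and -0.54, limma adjusted p = 0.00459 with zeros included in the median). It was not called with samples 1-2, 3-4 and 5-6 averaged (limma adjusted p = 0.268) or as a random block (limma adjusted p = 0.293). As deposited it was called higher (0.60, limma adjusted p = 0.0246), still 0.31 below the median feature. The log2 ratio of NTRC to FTR on the same array was 0.90 ± 0.32 (SE) larger in prors1 as deposited and 0.87 ± 0.31 (SE) after quantile scaling, with overlap between the genotypes as deposited. The direction for NTRC alone thus depended on the scaling. Its measured change relative to FTR was positive under both, but most features would give that sign. FTR was chosen by its difference and stood at -1.13 relative to the median feature after quantile scaling and at -1.21 as deposited. Relative to FTR, NTRC therefore rose less than the median feature did.

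SRX (AT1G31170), the sulfiredoxin that restores over-oxidised 2-Cys peroxiredoxins, had a scaled difference of -0.52 ± 0.31 (SE, n = 6 each, limma adjusted p = 0.202). Its deposited intensity was 0.173, 0.134, 0.134, 0.193, 0.203 and 0.144 in WT samples 1 to 6. In prors1 samples 1 to 6 it was 0.187, 0.262, 0.575, 0.58, 0.102 and 0.115. The prors1 samples therefore fell on both sides of the WT range, with 2, 3 and 4 above it, 5 and 6 below it and sample 1 within it. As deposited, prors1 samples 5 and 6 were the lowest of their genotype for SRX, PRXIIE, NTRC, SBPASE and CHLM. They were not the lowest for FTR, PRK and AT5G58330. The arrays of these samples also had the lowest medians of their genotype.

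Among the thioredoxin targets, AT5G58330, the plastid NADP-dependent malate dehydrogenase that is switched on through FTR and thioredoxin in the light, had deposited intensities from 1.4 to 2.21 in WT and from 1.16 to 1.8 in prors1. It fell by 0.65 ± 0.19 on the log2 scale after quantile scaling (SE, n = 6 each, limma adjusted p = 0.013), and 6 of 6 numbered pairs were lower in prors1 both scaled and as deposited. The call was lost as deposited (-0.31, limma adjusted p = 0.0976), with samples averaged (limma adjusted p = 0.128) and without replicate number 2 (limma adjusted p = 0.0508). Its log2 ratio to FTR changed by -0.01 ± 0.13 (SE) as deposited and by 0.50 ± 0.12 (SE) after quantile scaling, so the gap between the 2 transcripts depended on the scaling.

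Both measured light-activated enzymes of the Calvin cycle were called lower after quantile scaling. PRK (AT1G32060), the phosphoribulokinase, lay at 95.2% ± 0.382 of the array in WT and at 90.4% ± 1.65 in prors1 (n = 6 each, SD), without overlap. Its scaled difference was -0.97 (limma adjusted p = 4.64e-05), and as deposited it was -0.70 (limma adjusted p = 0.000116). The PRK call was kept under the alternatives run. Its log2 ratio to FTR changed by 0.19 ± 0.22 (SE) after quantile scaling and by -0.40 ± 0.20 (SE) as deposited. SBPASE (AT3G55800), the sedoheptulose-bisphosphatase, lay at 79.6% ± 5.76 in WT and 66% ± 10.1 in prors1 (n = 6 each, SD), with overlap. Its scaled difference was -0.73 (limma adjusted p = 0.0281). That call was lost on leaving out WT replicate 1, 2 or 4 or prors1 replicate 3, 5 or 6, at limma adjusted p between 0.0526 and 0.0623, and on leaving out replicate number 1, 2, 5 or 6 in both genotypes, at limma adjusted p between 0.0614 and 0.0747. It was also lost with samples 1-2, 3-4 and 5-6 as a random block (limma adjusted p = 0.203), and as deposited the difference was 0.01 (limma adjusted p = 0.969). The SBPASE call was kept with the replicate number as a block (limma adjusted p = 0.000453) and with samples averaged (limma adjusted p = 0.0499). Cyclic loess (limma adjusted p = 0.0387) and division by medians of positive values (limma adjusted p = 0.0033) kept it too.

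CHLM (AT4G25080), the magnesium-protoporphyrin methyltransferase of chlorophyll synthesis, lay at 76.5% ± 3.75 of the array in WT and at 64.9% ± 2.83 in prors1 (n = 6 each, SD), without overlap. Its scaled difference was -0.60 (limma adjusted p = 0.00118), and it was 0.21 and not called as deposited (limma adjusted p = 0.319) and not called with samples averaged (limma adjusted p = 0.0537).

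**Figure D3:**
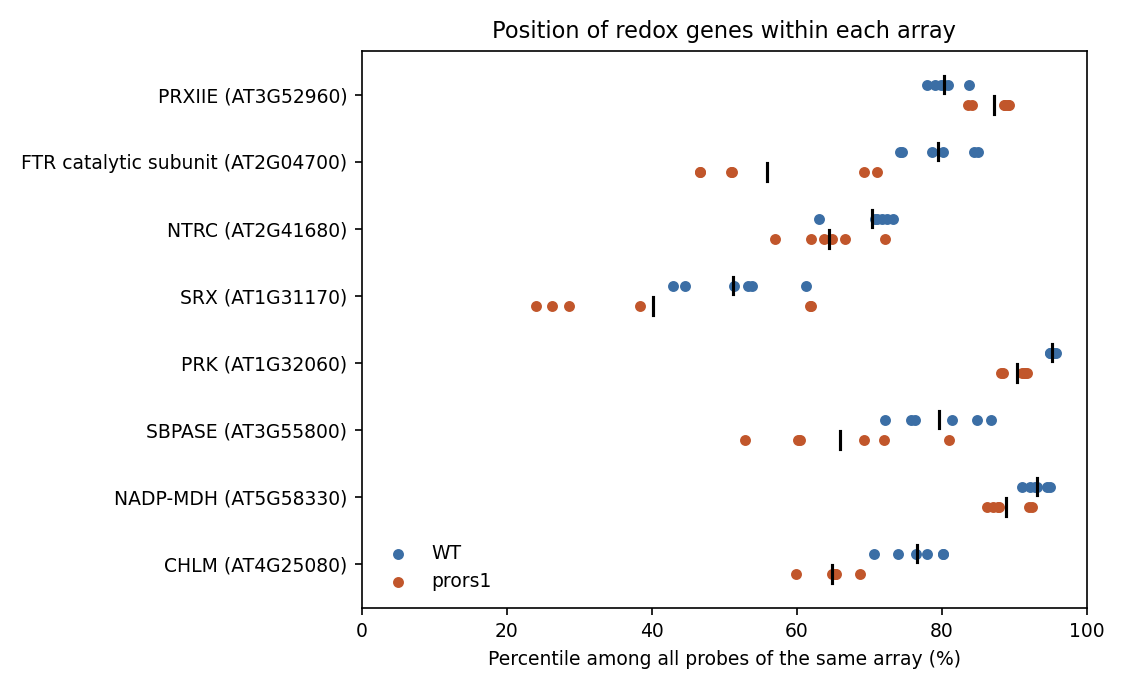
Position of each redox gene's probe among all 3439 probes of the same array, in percent of probes, for 6 WT and 6 prors1 arrays, with a black bar at the mean. PRXIIE lies higher in prors1 (mean 87.3% against 80.3% in WT) and the FTR subunit lower (55.9% against 79.5%).

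**Figure D4:**
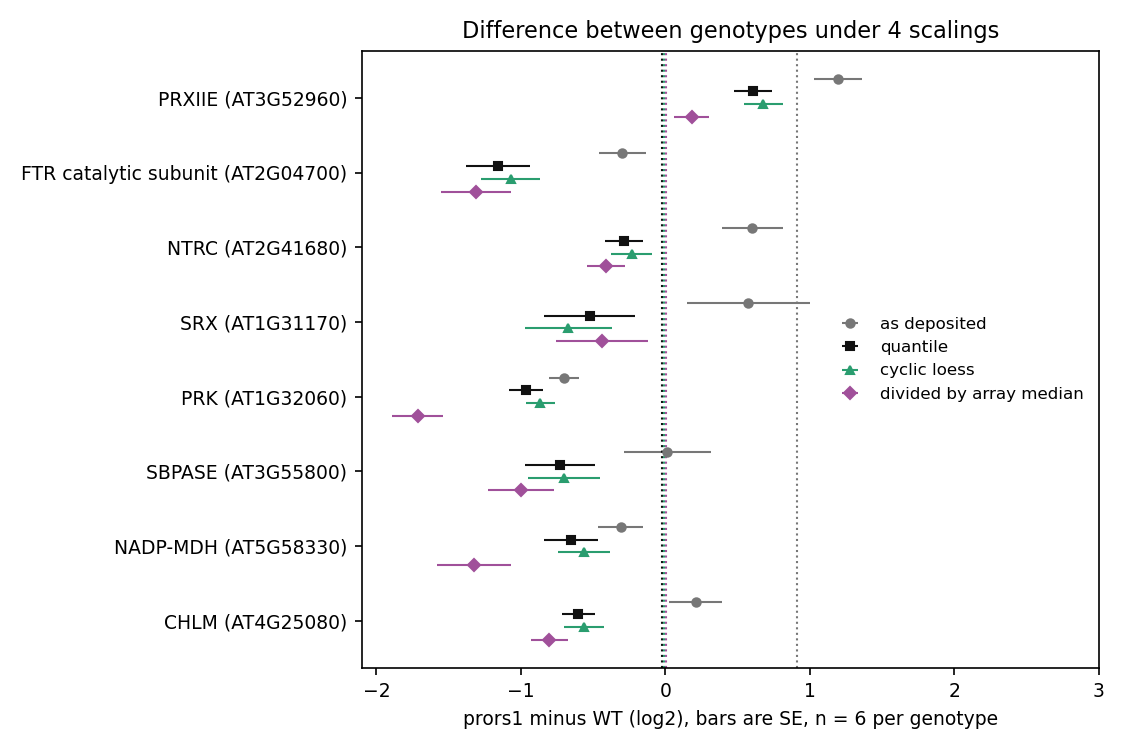
Log2 difference between prors1 and WT (points, bars are SE, n = 6 per genotype) for PRXIIE, the FTR subunit and 6 other redox genes as deposited and under 3 scalings, with dotted vertical lines at the median feature of each scaling. PRXIIE is above 0 and the FTR subunit below 0 in all 4, whereas NTRC, SRX, SBPASE and CHLM are above 0 only as deposited.

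How the levels varied among samples of one genotype played no part in the choice of the loci. Deviations from the genotype means over the 12 samples were compared with those of 459 other single-gene features never at the intensity floor. Samples 1-2, 3-4 and 5-6 resemble each other, so these 12 points are not independent and the correlations are descriptions. Nearest to PRXIIE were AT3G54680 (r = 0.98), AT2G23160 (0.90), AT4G16610 (0.89), AT2G32470 (0.86) and AT2G32040 (0.82). Within WT alone, r was 0.93, 0.66, 0.58, 0.72 and 0.091 in the same order, and within prors1 0.99, 0.96, 0.95, 0.9 and 0.94. The likeness was thus weaker in WT for each of them, and that of AT2G32040 lay in the prors1 samples. Between the genotypes, after quantile scaling, AT3G54680 and AT2G32470 were higher in prors1, by 1.30 ± 0.18 and 1.17 ± 0.19 on the log2 scale (SE, limma adjusted p = 1e-04 and 0.00035), and so was AT2G23160 (0.48 ± 0.15, limma adjusted p = 0.024). AT4G16610 was lower (-0.58 ± 0.14, limma adjusted p = 0.00446), and so was AT2G32040 (-0.37 ± 0.14, limma adjusted p = 0.0493). Genes that varied with PRXIIE within genotypes thus differed between the genotypes in either direction.

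Nearest to the FTR subunit over the same 12 samples were AT5G52530 (r = 0.95), AT4G27510 (0.95), AT3G56810 (0.93), AT4G30680 (0.93) and AT2G36480 (0.92). Of these, AT5G52530 and AT4G30680 were lower in prors1, by -0.87 ± 0.20 and -1.22 ± 0.27 on the log2 scale (SE, limma adjusted p = 0.00368 and 0.00307). The other 3 did not pass the test, with differences of -0.03, 0.14 and 0.30 (limma adjusted p = 0.959, 0.652 and 0.512). The malate dehydrogenase AT5G58330 stood at rank 34 of the 459 (r = 0.85, and 0.61 as deposited). For the other measured redox neighbours, r with the FTR subunit was 0.33 (PRK), -0.44 (SBPASE), -0.45 (CHLM), -0.51 (NTRC) and -0.535 (SRX). PRXIIE and the FTR subunit themselves had r = -0.55 over the 12 samples after quantile scaling, 0.73 within WT and -0.98 within prors1, but r = -0.13 over the 12 samples as deposited. In prors1, samples 5 and 6 had the lowest PRXIIE and the highest FTR values after scaling, and these correlations rest largely on the sets of samples.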

How the data were processed

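One table of linear, never negative intensity values with a column per sample was deposited. The sources used here do not say how the authors made these intensities. The platform annotation names 1 gene for 692 of the 3439 probes, several for 870 and none for 1877. Of the 692, 690 were matched by gene identifier to the TAIR10.1 gene table.

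Arrays were quantile-scaled, a floor was set at the 5th percentile of values above 0 (0.0467), to which 13.7% of values were raised, and values were put on the log2 scale. No value of the genes named here lay at that floor. Rows of one locus were averaged, and 135 features with no value above the floor were dropped. All 3303 features were fitted with limma 3.58.1 in R 4.3.3 (genotype only, two-sided, Benjamini-Hochberg adjustment over all features), and the procedure was tested on simulated data. Precision is limited by the number of arrays.

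The loci, the redox list and the settings were chosen with earlier results of these data known. The genes named are PRXIIE, FTR, each measured locus of the list, and the 5 single-gene features nearest to PRXIIE and to FTR in their deviations from the genotype means. Between samples sharing a number, deviations from the means of the genotypes had correlations of 0.346 to 0.489 (2385 features with no value at the floor). Each WT sample correlated best with the prors1 sample of its own number. The numbers were therefore taken as pairs in the comparisons by number and in the block, while the main fit used genotype only.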

Additional observations from a re-analysis of the deposited data

Results flagged for a closer look

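Among 16 groups (8 genes in each genotype), 1 had a sample that stood far apart from the rest, and chance gives this in about 1 of 20 groups. NTRC was lowest in WT replicate 5 at -1.46 on the log2 scale after quantile scaling, with the next WT value at -1.10.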

How the results depend on the processing

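The PRXIIE difference was above 0 and the FTR difference below 0 under the alternatives run, but their sizes depended on the scaling, and PRXIIE came within its SE of 0 under one of them. As deposited the differences were 1.20 for PRXIIE and -0.30 for FTR. With arrays divided by the median of positive values PRXIIE was at 0.18, and at 0.048 ± 0.12 (SE) with zeros included in the median, a setting added after seeing the data. On leaving out a sample or a replicate number, PRXIIE ranged from 0.55 to 0.73 and FTR from -1.29 to -1.08, and the change of their ratio from 1.64 to 1.97. With the replicate number as a block the differences were 0.61 ± 0.15 and -1.16 ± 0.12 (SE), the change of their ratio was 1.76, 1664 features were called and 5 of the 6 neighbours. With samples 1-2, 3-4 and 5-6 averaged the SEs were 0.20 and 0.32.

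Over all features 1414 were called (649 higher, 765 lower), against 2212 as deposited (2030 higher, 182 lower), 1543 with division by medians of positive values (677 higher, 866 lower), 1555 with zeros included (552 higher, 1003 lower), 749 with samples averaged, and 1202 to 1484 on leaving out samples. The number of called neighbours was 2 as deposited, 2 with samples averaged and 2 to 5 on leaving out samples. As deposited, the differences of NTRC (0.60), SRX (0.57), SBPASE (0.014) and CHLM (0.21) had the opposite sign, relative to a median feature at 0.91. The cause of these shifts was not tested.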
